A study of Mus musculus with 15 samples.

Results

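The genes Sall1, Sall3, Sall4, Sp8, Alx1 and Lhx3 encode transcription factors known from the patterning of early embryos, and they were followed across the freshly isolated and cultured embryonic mouse lungs of the series. They were picked by symbol, 6 of the 23420 genes counted, and all 6 have a row in both raw count tables. The choice was made with measured values of these libraries in view, both from the pressure and from the stage comparisons, so their levels and fold changes are given as a description and carry no test of their own. All lungs came from wildtype embryos of the outbred CD1 strain, with no transgene and no drug. Fresh lungs were taken from embryos of pregnant mice at embryonic stages E12.5, E13.5 and E14.5 (days of gestation). The cultured lungs were all explanted at E12.5 and kept ex vivo for 48 h at either low or high transmural pressure (the difference between the inside and the outside of the airways), so both culture groups share the explant and the culture, and no cultured group at the E12.5 start or at an unmanipulated pressure was analysed here. Each of the 5 groups has 3 libraries, each made from pooled whole lungs, 6 lungs per pool at low pressure and E12.5 and 3 in the other groups.

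The Sall proteins are zinc finger factors that recruit the NuRD complex, a chromatin remodelling and histone deacetylase complex, and mostly repress their targets. Sall1 is known from kidney, limb and heart development, Sall4 from pluripotent stem cells and limb outgrowth, and Sall3 from limb and nervous tissue. Sp8 is a zinc finger factor of the Sp family that binds GC-rich boxes and is needed for limb outgrowth and forebrain patterning. Alx1 is a paired-type homeodomain factor of craniofacial mesenchyme, and Lhx3 a LIM homeodomain factor of the pituitary and of motor neurons. None of the 6 is a standard marker of a lung cell lineage.

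The cultured libraries held 31843739 to 44341263 counts and the fresh ones 18837343 to 21955244, and levels are given as counts per 1000000 counts of the scaled library (CPM). Low pressure replicate 3 had counts for 14637 genes, against 16465 to 16729 in the fresh libraries, and replicate 1 of each stage stood apart from replicates 2 and 3, with 3.33% to 4.06% of counts on ribosomal protein genes. All 7 markers of lung epithelium and all 7 of lung mesenchyme had counts in every library, with summed levels of at least 398 and 1410 CPM. The labels do not tie the pools to litters or culture runs, so SDs and p-values measure the spread between these pools, which may be technical. In whole lungs, fewer cells of a type and less RNA per cell cannot be told apart.

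Sall1 (ENSMUSG00000031665.7, mm10 chromosome 8, 89027235 to 89044162, minus strand, per GENCODE M21) had its highest levels in the lungs cultured at low pressure. There it stood at 9.98, 17.9 and 8.82 CPM in replicates 1 to 3, from 321, 688 and 276 counts. At high pressure it stood at 1.37, 1.57 and 2.46 CPM. Every low pressure library lay above every high pressure library, with replicate 2 the highest of all. The means were 12.2 ± 4.94 and 1.80 ± 0.581 CPM (SD, n = 3), so the mean was 6.79-fold lower at high pressure. The fitted log2 fold change was -2.77 (SE 0.35), with 0.274% of the 14937 genes tested having a lower one.

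In the fresh lungs Sall1 went the other way with stage. It stood at 0.674, 0.587 and 1.75 CPM at E12.5 and at 0.818, 0.782 and 1.12 CPM at E13.5, overlapping groups of 13 to 35 counts per library. At E14.5 it stood at 2.45, 11.4 and 3.29 CPM, above every library of the earlier stages, with replicate 2 far above the other E14.5 libraries. The log2 fold change from E12.5 to E14.5 was 2.51 (SE 0.67), and the E14.5 level was 3.64, 19.4 and 1.88 times that of the E12.5 library with the same number. Without E14.5 replicate 2 that log2 fold change was 1.49. From E12.5 to E13.5 it was -0.14 (SE 0.69), and without E12.5 replicate 3 it was 0.52.

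Markers of striated muscle differed between the same E14.5 libraries. The 8 markers (Myh3, Myh6, Actn2, Tnnt2, Tnnc1, Myl7, Nppa and Ttn) summed to 631, 1310 and 293 CPM in E14.5 replicates 1 to 3, with none at 0, against 6.21 to 35.1 CPM at E12.5 and 10.2 to 105 CPM at E13.5. The library with the highest Sall1 level among the fresh lungs was thus also the one with the highest summed muscle markers, although replicates 1 and 3 do not keep that order. Their part in the Sall1 difference between stages was not tested. In the cultured lungs the same markers summed to 7.4, 21.1 and 27.5 CPM at low pressure and to 18.8 to 26.1 CPM at high pressure. The 2 groups overlap there, Nppa was at 0 in replicates 1 and 3 of both, and Tnnt2 was at 0 in low pressure replicate 3. Low pressure replicate 1 held 9.98 CPM of Sall1 beside 7.4 CPM of muscle markers.

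**Figure D1:**
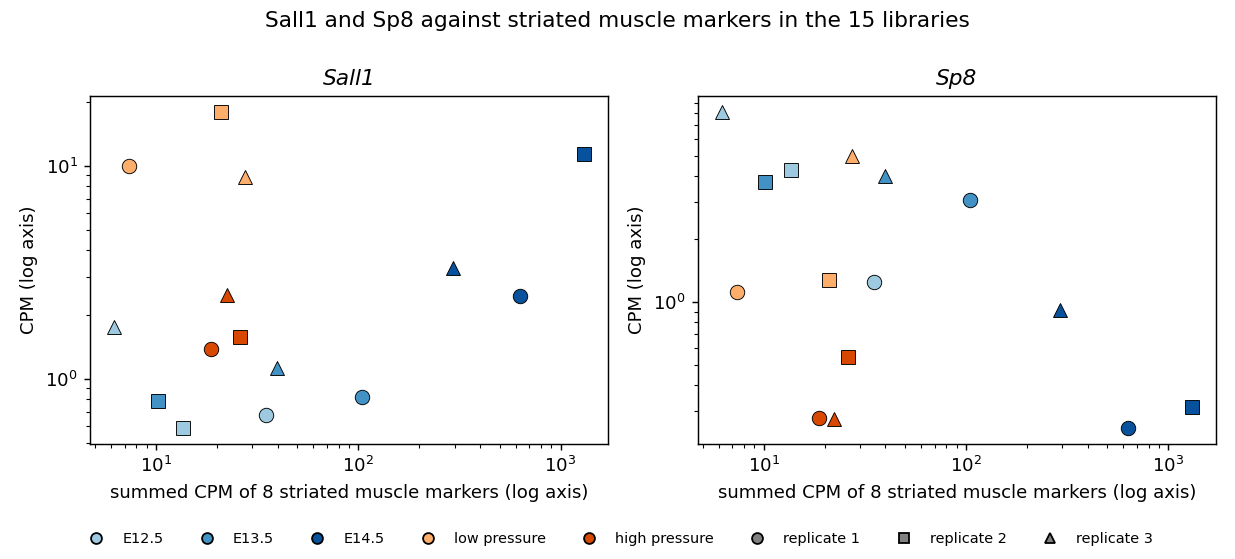
CPM of Sall1 (left) and Sp8 (right) against the summed CPM of 8 striated muscle markers, both axes logarithmic, one point per library, coloured by group and shaped by replicate number. The E14.5 libraries lie at the right, from 293 to 1310 CPM of muscle markers, with Sall1 at 2.45 to 11.4 CPM, while the low pressure libraries reach 8.82 to 17.9 CPM of Sall1 at 7.4 to 27.5 CPM of muscle markers.

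Sall4 (ENSMUSG00000027547.17, chromosome 2, 168748332 to 168767943, minus strand) was lower at each later stage and overlapped between the pressures. It stood at 3.52, 4.56 and 7.57 CPM at E12.5, 2.10, 3.70 and 3.47 CPM at E13.5, and 0.851, 0.682 and 1.35 CPM at E14.5. E12.5 and E13.5 overlapped, and all E14.5 libraries lay below both. The log2 fold change from E12.5 to E14.5 was -2.43 (SE 0.41), and the 3 same-numbered pairs had ratios of 0.242, 0.150 and 0.178, closer to each other than for any other of the members. Most of the difference lay in the second day, at -1.68 (SE 0.41) against -0.75 (SE 0.38) in the first, though the 2 steps share the E13.5 libraries and their difference was not tested. In culture Sall4 stood at 3.98, 5.26 and 1.69 CPM at low and 3.40, 2.55 and 0.904 CPM at high pressure, with a log2 fold change of -0.67 (SE 0.54). Replicate 3 was the lowest library of both pressure groups. The noncoding gene Gm14261 overlaps Sall4 on the other strand, and since the strand setting of the counting is not given in the sources used here, reads of the pair cannot be told apart.

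Sall3 (ENSMUSG00000024565.9, chromosome 18, 80966376 to 80986771, minus strand) was close to the limit of detection. It had 0 to 16 counts per library and did not pass the low-count filter in either table, so it has no fitted fold change. Low pressure replicate 2 (16 counts) and E12.5 replicate 2 (12 counts) were the highest, and the other 13 libraries had 0 to 6. A count of 0, as in high pressure replicates 1 and 2, low pressure replicate 3 and E13.5 replicate 2, allows up to 0.0682 to 0.156 CPM on counting error alone (3 counts of the library's scaled total). At this depth no difference between groups was detectable for Sall3.

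The relative Sall2, which is not among the members, sets the scale for the family. Per kilobase of exon, Sall2 averaged 11.2 to 15.5 CPM in the 5 groups. Sall1 averaged 0.172 to 2.32 CPM per kilobase, Sall4 0.174 to 0.942 and Sall3 0.00671 to 0.0307. On this length-adjusted scale Sall4 was above Sall1 at E12.5 (0.942 against 0.191) and Sall1 above Sall4 at E14.5 (1.08 against 0.174) and at low pressure (2.32 against 0.658). At high pressure the pair stood at 0.342 for Sall1 and 0.412 for Sall4. At low pressure Sall2 averaged 77.9 ± 5.26 CPM and at high pressure 72.6 ± 2.37 CPM (SD, n = 3). Its log2 fold change, -0.10 (SE 0.09), did not pass (edgeR, adjusted p = 0.443). In the fresh lungs it went from 84.5 ± 1.83 CPM at E12.5 to 60.6 ± 5.64 CPM at E14.5 (SD, n = 3). This was a log2 change of -0.48 (SE 0.08) that was called in the fit with the replicate number as a block (edgeR, adjusted p = 0.00489) and not in the fit without it.

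**Figure D2:**
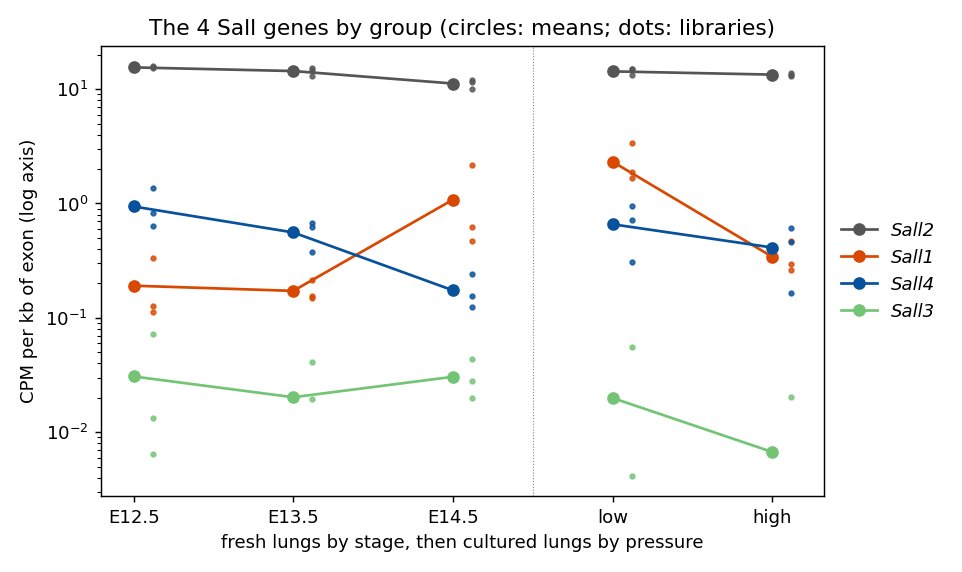
CPM per kilobase of exon (logarithmic axis) of the 4 Sall genes in fresh lungs by stage and in cultured lungs by pressure. Circles joined by lines are means of 3 libraries, dots are single libraries, and Sall3 libraries at 0 are not drawn. Sall2 lies at 11.2 to 15.5 in every group, and the lines of Sall1 and Sall4 cross between E13.5 and E14.5.

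Sp8 (ENSMUSG00000048562.7, chromosome 12, 118846329 to 118852576, plus strand) was lower at E14.5 than at either earlier stage and lower at high than at low pressure. It stood at 1.25, 4.29 and 8.12 CPM at E12.5, with replicate 1 the lowest and replicate 3 the highest. At E13.5 it stood at 3.07, 3.75 and 4.01 CPM, and at E14.5 at 0.250, 0.315 and 0.918 CPM, from 5, 6 and 17 counts. All E14.5 libraries lay below all earlier ones, and E12.5 and E13.5 overlapped. With so few counts at E14.5, Sp8 passed the low-count filter in the fresh lungs through the earlier stages. A gene kept that way can only come out lower at E14.5, which also limits its rank. The log2 fold change was -2.86 (SE 0.72) from E13.5 to E14.5, the fourth lowest of the 14242 genes tested, and -0.33 (SE 0.63) from E12.5 to E13.5, or 0.38 without E12.5 replicate 3. The low E12.5 library was replicate 1, the number that also carried the higher share of ribosomal protein counts at each stage. Within the number 1 libraries the ratio of E14.5 to E12.5 was 0.200, and within numbers 2 and 3 it was 0.0734 and 0.113.

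In culture Sp8 stood at 1.12, 1.28 and 4.98 CPM at low pressure and at 0.279, 0.546 and 0.276 CPM at high pressure, from 36 to 156 and 11 to 24 counts. The groups did not overlap, and low pressure replicate 3, the library with the fewest detected genes, was the highest. The log2 fold change was -2.73 (SE 0.72), and -1.69 without that library.

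Alx1 (ENSMUSG00000036602.14, chromosome 10, 102998707 to 103030215, minus strand) was lower at high than at low pressure and lower at E14.5 than at E12.5. At low pressure it stood at 5.84, 6.95 and 7.35 CPM and at high pressure at 1.14, 2.02 and 1.88 CPM, with no overlap. The means were 6.71 ± 0.780 and 1.68 ± 0.475 CPM (SD, n = 3), which is 3.99-fold lower at high pressure. The fit gave a log2 fold change of -1.99 (SE 0.29). In the fresh lungs it stood at 0.674, 1.81 and 1.6 CPM at E12.5, 1.12, 0.574 and 0.733 CPM at E13.5, and 0.350, 0.577 and 0.270 CPM at E14.5. Neighbouring stages overlapped, and E12.5 and E14.5 did not, with a log2 fold change of -1.75 (SE 0.49) from 14 to 40 counts at E12.5 and 5 to 11 at E14.5. In the fresh lungs Alx1 passed the low-count filter through the earlier stages, so it could only come out lower at E14.5. The long noncoding gene Gm17028 overlaps Alx1 on the same strand, so reads of the pair may be mixed.

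Lhx3 (ENSMUSG00000026934.15, chromosome 2, 26200212 to 26208289, minus strand) was lower at each later stage and lower at high than at low pressure. It stood at 1.16, 1.13 and 1.2 CPM at E12.5, 0.920, 0.626 and 0.684 CPM at E13.5, and 0.350, 0.472 and 0.270 CPM at E14.5. None of the 3 stages overlapped with another, and the log2 fold change from E12.5 to E14.5 was -1.66 (SE 0.32). With 5 to 9 counts at E14.5, Lhx3 passed the filter in the fresh lungs through the earlier stages, so it could only come out lower at E14.5. In culture it stood at 0.590, 0.807 and 1.95 CPM at low pressure and at 0.279, 0.136 and 0.151 CPM at high pressure, from 19 to 61 and 6 to 12 counts. The groups did not overlap, and as for Sp8 the highest library was low pressure replicate 3. The log2 fold change was -2.54 (SE 0.76), and -1.87 without that library. With 6 to 12 counts at high pressure, Lhx3 passed the low-count filter through the low pressure group. A gene kept that way can only come out lower at high pressure. The antisense gene Gm27196 overlaps Lhx3, and reads of the 2 cannot be told apart either.

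**Figure D3:**
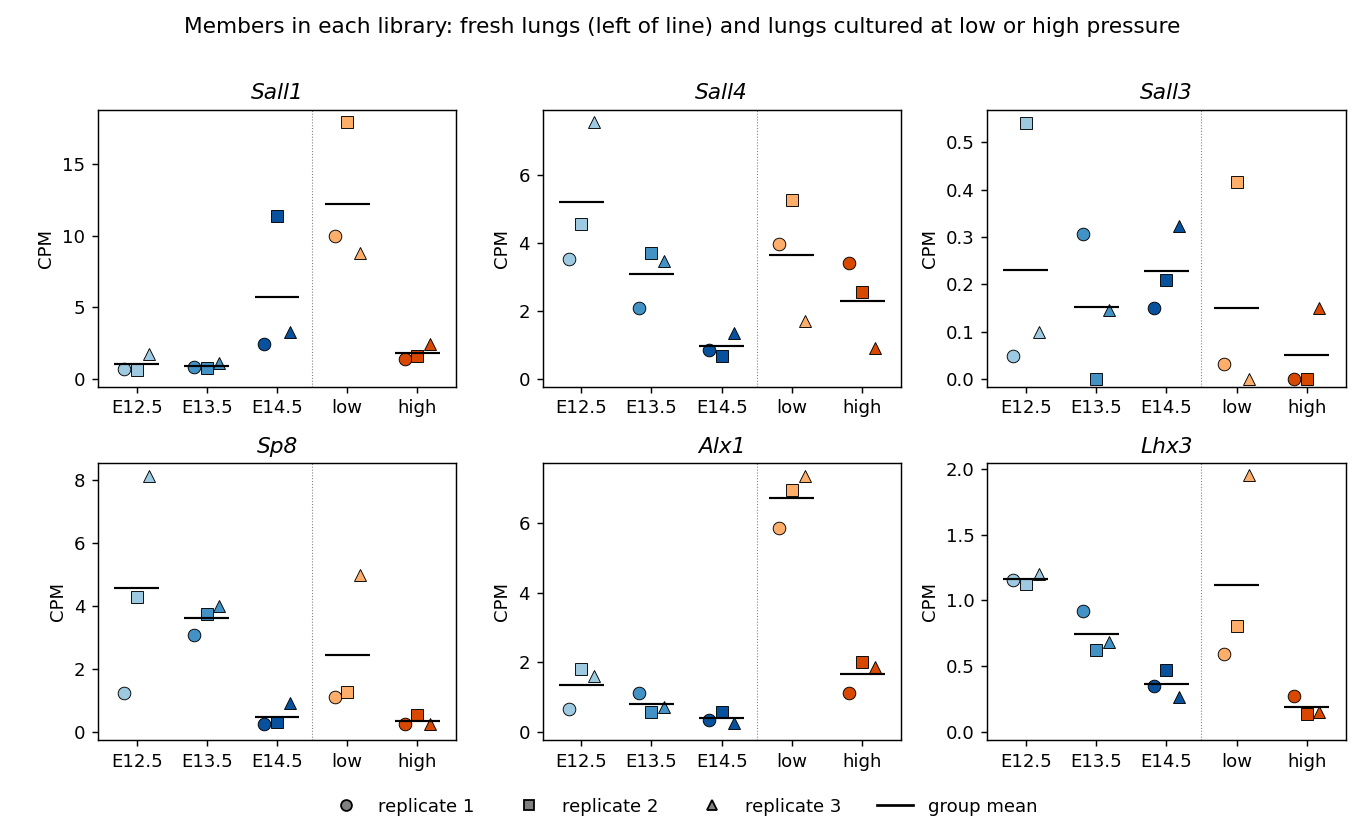
CPM of each member in each of the 15 libraries (linear axes that differ between panels), with fresh lungs by stage to the left of the dotted line and cultured lungs to its right. Symbols give the replicate number and bars the group means. Sall1 reaches 17.9 CPM at low pressure and 11.4 CPM in E14.5 replicate 2, while Sp8, Sall4, Alx1 and Lhx3 are lowest among the fresh lungs at E14.5.

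RefSeq promoter windows matched 3 of the 6 members, Sall1, Sp8 and Lhx3, which are shown for that reason and not for their levels. The bases upstream of their outermost RefSeq start sites (build GRCm38.p6) are given 5′ to 3′ on the gene's strand. The capitals mark every match, on either strand, of the GC box GGGCGG bound by Sp factors, the homeodomain core TAATTA, the CCAAT box CCAAT and the letters TATAAA. None of these motifs overlaps another of them in the stretches printed.
Sall1, chr8:89044163-89044412, minus strand: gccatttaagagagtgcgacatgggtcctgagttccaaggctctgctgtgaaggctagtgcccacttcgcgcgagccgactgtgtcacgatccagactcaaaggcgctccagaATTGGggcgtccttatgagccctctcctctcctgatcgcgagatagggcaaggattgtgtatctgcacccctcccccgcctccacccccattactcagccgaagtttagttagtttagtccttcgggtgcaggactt
Sp8, chr12:118846079-118846328, plus strand: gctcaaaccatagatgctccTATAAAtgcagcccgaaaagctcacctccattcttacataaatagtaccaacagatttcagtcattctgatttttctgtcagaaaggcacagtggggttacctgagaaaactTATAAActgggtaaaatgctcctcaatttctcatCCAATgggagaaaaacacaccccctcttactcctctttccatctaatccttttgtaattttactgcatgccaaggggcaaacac
Lhx3, chr2:26208290-26208499, minus strand, stopping short of an earlier start in GENCODE: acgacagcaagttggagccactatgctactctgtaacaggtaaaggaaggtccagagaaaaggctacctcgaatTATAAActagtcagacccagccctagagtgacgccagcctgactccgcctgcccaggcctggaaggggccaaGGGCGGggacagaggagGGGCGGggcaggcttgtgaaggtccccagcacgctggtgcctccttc
The Sall1 stretch held no GC box and 1 CCAAT box, the Sp8 stretch no GC box, 1 CCAAT box and TATAAA at 2 places, and the Lhx3 stretch 2 GC boxes and 1 TATAAA. At the start sites further inside the genes, the 250 bases upstream held 4 and 1 GC boxes for Sall1, 1 and 0 for Sp8 and 3 for Lhx3, and 1 TAATTA before the innermost Sp8 start. Among all 32851 windows of 250 bases in the table, GGGCGG occurred in 32.7%, CCAAT in 33.8%, TATAAA in 12.4% and TAATTA in 4.84%. These matches describe the letters only. The printed Lhx3 stretch overlaps 1 exon annotated in GENCODE, and those of Sall1 and Sp8 overlap 0. The shown stretch of Sp8 had 40.8% G and C, against 56.4% for Sall1 and 59.5% for Lhx3.

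Set side by side, the members did not share one pattern over both data sets. Sp8, Alx1 and Lhx3 were lower at high pressure and lower at E14.5 than at E12.5. Sall4 was lower at E14.5 and had overlapping pressure groups. Sall1 was lower at high pressure and higher at E14.5. For high against low pressure, 4 of the 5 members that passed the filter were below the threshold of an adjusted p of 0.05, all lower, in a comparison where 26.1% of 14937 genes were called and 12.2% were called lower. Sall1 and Alx1 were called in all 11 alternative settings, Sp8 in 7 and Lhx3 in 5. The calls of Sp8 and Lhx3 ended without any 1 of the 3 high pressure libraries, and that of Lhx3 also without low pressure replicate 1 or 2. Between the pressures 21.8% of the genes tested were lower with no overlap between the groups, as Sall1, Sp8, Alx1 and Lhx3 were. From E12.5 to E14.5 Sall4, Sp8, Alx1 and Lhx3 were lower without overlap, as 5.33% of 14242 genes were, and Sall1 higher, as 8.76% were. From E13.5 to E14.5 Sall4, Sp8 and Lhx3 were lower without overlap (4.14% of genes) and Sall1 higher (7.84%), and from E12.5 to E13.5 Lhx3 alone was lower without overlap (1.52%). With the replicate block the first 4 were also among the genes called lower (3.63% of those tested), while 7.33% were called higher, Sall1 not among them. Sp8, Alx1 and Lhx3 passed the filter in the fresh lungs through the earlier stages, so they could only come out lower at E14.5 in these counts. In the cultured lungs the same held for Lhx3 at high pressure. With edgeR and no block or batch term 0 genes were called when all 9 libraries were fitted with the low-count filter. Sall1 was called higher by the DESeq2 Wald test and with a batch term for number 1, and Sall4, Sp8 and Lhx3 were called lower in both of these. These calls, settings and shares are printed for scale and are no test of the members, since the members were chosen with both contrasts known.

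**Figure D4:**
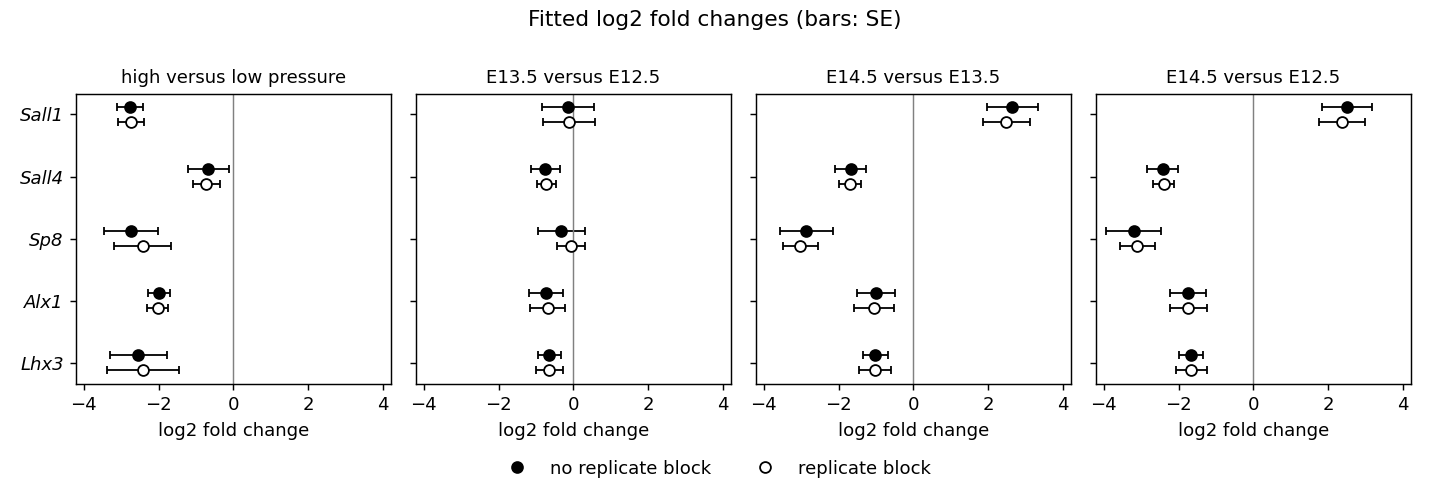
Fitted log2 fold changes of the 5 members that passed the low-count filter, with bars of 1 SE, in 4 comparisons. Filled circles come from the fit without and open circles from the fit with the replicate number as a block. Sall1 lies at -2.77 for pressure and at 2.51 for E14.5 against E12.5, and the other 4 lie left of 0 in each panel.

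The order of the 5 groups differed between the members, with each table scaled on its own. Alx1 was highest at low pressure (6.71 CPM), apart from all other libraries, and then 1.68 at high pressure, 1.36 at E12.5, 0.810 at E13.5 and 0.399 CPM at E14.5, where each of these neighbours overlapped the next. Sall1 was highest at low pressure (12.2 CPM), followed by E14.5 (5.71), high pressure (1.80), E12.5 (1.0) and E13.5 (0.908), with every neighbour overlapping the next. Sp8 went from E12.5 (4.55 CPM) through E13.5 (3.61) and low pressure (2.46) to E14.5 (0.494) and high pressure (0.367), and the one gap between neighbours was that between low pressure and E14.5. For Lhx3 the order was E12.5 (1.16 CPM), low pressure (1.12), E13.5 (0.743), E14.5 (0.364) and high pressure (0.189), with its one gap between E13.5 and E14.5. Sall4 ran from E12.5 (5.21 CPM) through low pressure (3.64), E13.5 (3.09) and high pressure (2.28) to E14.5 (0.961), and all of its neighbours overlapped.

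Other genes followed single members closely over both tables. Likeness was measured as Pearson's r of log2 CPM over the 6 cultured and over the 9 fresh libraries, and the genes named have the largest smaller value of the 2 among 12143 candidates. Libraries of one group share their stage or pressure, and replicate 1 of the stages stands apart, so these values carry no p. Sall1 was most like Ryr2, the calcium release channel of heart muscle (r = 0.97 and 0.95), Pdk1, a kinase that regulates pyruvate dehydrogenase (0.96 and 0.94), and Ncam1, a neural cell adhesion molecule (0.98 and 0.94). Sp8 was most like Kdm2b, a histone demethylase (0.97 and 0.97), Ldoc1l (0.98 and 0.96) and Ikbkap, a subunit of the Elongator complex (0.94 and 0.95). Alx1 was most like the LIM homeodomain gene Isl1 (0.97 and 0.89), Zfp12 (0.96 and 0.88) and Tiam1 (0.93 and 0.88), and Lhx3 most like Zmiz1 (0.97 and 0.93), the Polycomb gene Cbx2 (0.93 and 0.91) and Csrnp2 (0.89 and 0.93). For Sall4 the closest were Fam118b (0.93 and 0.90), Ddx52 (0.89 and 0.88) and its own relative Sall2 (0.89 and 0.85). Among the members themselves, Sall1 and Alx1 had r = 0.95 over the cultured and -0.48 over the fresh libraries, and Sall4 and Sp8 0.13 and 0.92.

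Genes of the same families and of the settings in which the members are known were taken as 7 lists, and pressure counts are given for 6 of them. The lists were chosen with earlier results of these data known. Of 22 relatives outside the members (of the Sall, Sp, Alx and LIM homeodomain families), 15 passed the filter in the cultured lungs. Of these 6 fell at high pressure, 0 rose and 9 did not pass, where 12.2% of all genes tested fell. Their median log2 fold change was -0.33, against 0.01 over all genes tested. Isl1, a LIM homeodomain factor of motor neurons and heart progenitors, fell from 25.6 ± 2.95 to 9.10 ± 0.576 CPM (SD, n = 3). Its fitted change was -1.49 on the log2 scale (SE 0.14, edgeR adjusted p = 0.000608). Lhx6 (-2.13, SE 0.31) and Lhx8 (-2.78, SE 0.49), both known from the forebrain and the facial mesenchyme, fell too, and so did Sp4 (-0.64). The lowest value was that of Isl2 (-3.74, SE 0.97, edgeR adjusted p = 0.0235), named after its values were seen. Isl2 had 55 to 97 counts per library at low and 0 to 16 at high pressure. It passed the filter through the low pressure group, and a gene kept that way can only come out lower at high pressure. Alx4, a relative of Alx1, fell from 25.6 ± 4.04 to 16.0 ± 2.05 CPM (SD, n = 3; log2 fold change -0.68, SE 0.16, edgeR adjusted p = 0.0174). Sp5, another Sp family member, had a log2 fold change of -0.30 (edgeR adjusted p = 0.615). Sp9, the nearest relative of Sp8, had 14 counts over the low pressure libraries and 0 over those at high pressure, and Lhx4, the nearest relative of Lhx3, had 1 and 0, so neither was tested. Without high pressure replicate 2 the count of relatives that fell was 3.

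The list with the most fallen genes was that of craniofacial mesenchyme, the tissue in which Alx1 is best known. Of its 15 genes 14 were tested, and 8 fell, 0 rose and 6 did not pass, with a median log2 fold change of -1.61, where 12.2% of all genes tested fell. Dlx2, among the 8, averaged 0.271 CPM at high pressure, and Tfap2b and Pax7, among the 6, averaged 0.189 and 0.255 CPM. These genes were kept by the low-count filter through the low pressure group. They could thus only come out lower at high pressure, which limits the count and the median. Foxc1, a forkhead factor of head mesenchyme and vessels, fell from 42.4 ± 8.06 to 8.27 ± 2.51 CPM (SD, n = 3), or by -2.36 on the log2 scale (SE 0.25, edgeR adjusted p = 0.000951). Tfap2a, a neural crest factor, (-1.70, SE 0.29), Foxc2 (-1.53, SE 0.27) and the mesenchymal factor Twist1 (-2.03, SE 0.36) fell as well. The count was 4 without high pressure replicate 1, high pressure replicate 3 or low pressure replicate 2, 5 without high pressure replicate 2, and 3 with all 15 libraries in one fit, always with 0 risen. Among 9 tested genes of kidney progenitors (of 13), in which Sall1 is needed, Six2 (-2.74, SE 0.47) and Eya1 (-0.78, SE 0.22) fell and 7 did not pass, a share near the 26.1% called among all genes. Leaving out one library gave 1 to 4 called genes there.

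Limb outgrowth genes, around Sp8 and Sall4, moved both ways. Of 11 tested (of 16), the homeobox gene Dlx5 (-3.16, SE 0.40), Gli3 (-0.87) and Tbx5 (-0.34) fell, and Fgf10 (0.73), Tbx4 (0.42) and Bmp4 (0.41) rose. Leaving out one library gave 3 to 6 called genes, and the fit of all 15 libraries 1. In the pluripotency list, around Sall4, 9 of 16 genes were tested, and Klf5, which is also an epithelial factor, rose (1.42, SE 0.13) while the RNA-binding protein gene Lin28b fell (-1.50, SE 0.24), again near the share called among all genes. With all 15 libraries in one fit 1 gene of that list was called, higher. The NuRD complex, the partner of the Sall proteins, was expressed in all its 13 genes, of which 5 rose and 0 fell, where 14% of all genes tested rose and 12.2% fell. Mta3 (0.53), Mta1 (0.39), Gatad2a (0.28) and Chd4 (0.27) were the first 4, changes of under 1.5-fold, and the count was 1 without high pressure replicate 1, high pressure replicate 2 or low pressure replicate 1, 2 without high pressure replicate 3, 3 without low pressure replicate 2 and 0 in the fit of all 15 libraries.

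Other features of the libraries differed along with pressure. The lung epithelial markers summed to 625 to 740 CPM at low and 1520 to 1650 CPM at high pressure, and all 7 rose. Of the 7 lung mesenchyme markers 3 rose and 3 fell, with sums of 2340 to 2640 and 3110 to 3830 CPM. Endothelial markers summed to 210 to 335 and 93.1 to 215 CPM, mesothelial ones to 284 to 303 and 392 to 515 CPM, and neuronal and glial ones to 17.6 to 23.2 and 13.9 to 20.8 CPM, with no marker of these 3 lists at 0 in any cultured library. Ribosomal protein genes took 1.76% to 2.02% of counts at low and 2.84% to 3.11% at high pressure, and pools held 6 and 3 lungs. The part of these differences in the lower levels of Sall1, Sp8, Alx1, Lhx3 and the related genes was not tested, and pool size and pressure cannot be told apart, nor can pool size and stage between E12.5 and the later stages.

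In the fresh lungs no gene of any of the 7 lists passed in the plain edgeR fit from E12.5 to E14.5, which had neither block nor batch term. In that fit 0 of 14242 genes were called from E12.5 to E14.5, 1328 had an unadjusted p under the same threshold, and DESeq2 called 457. Same-numbered libraries deviated together, though pairs of different numbers also reached r of 0.625. With the replicate number as a block 11% of the genes were called (1561). In that fit all 6 endothelial markers rose (sums of 432 to 623 CPM at E12.5 and 695 to 886 CPM at E14.5), as did 5 of 8 striated muscle and 2 of 5 mesothelial markers, and 1 red cell marker fell. The part of these differences in the stage differences of the members and lists was not tested. Of 13 tested relatives 4 fell and 1 rose in the block fit, where 3.63% of all genes tested fell and 7.33% rose. Sall2 and Alx4 (-1.95, SE 0.44), Isl1 (-1.01, SE 0.25) and Lmx1a (-3.76, SE 0.63) fell, and Lhx6 rose (1.0, SE 0.25, edgeR adjusted p = 0.0299). Lmx1a had 12 to 79 counts per library at E12.5 and 0 to 7 at E14.5, and passed the filter through E12.5. Lhx6 thus went down at high pressure and up with stage, the same pair of directions as Sall1, while Isl1 and Alx4 were lower in both, as Alx1 was. The Lhx6 levels overlapped between E12.5 (2.56 to 9.34 CPM) and E14.5 (6.24 to 17.3 CPM), and Sall1 was not called in the block fit. In the pluripotency list Lin28a (-2.75, SE 0.62) and Lin28b (-1.42, SE 0.25) fell with stage and Klf5 rose (1.17, SE 0.27). Of the 12 craniofacial genes tested 1 fell, Tfap2b (-2.41, SE 0.56), against 8 of 14 for pressure, and the difference between the 2 contrasts was not tested. Around Lhx3, Nkx6-1 (-2.64, SE 0.54) and the LIM cofactor gene Ldb1 (-0.26, SE 0.07) fell. In the limb list Tbx5 (-0.35) and Msx2 (-1.96) fell, in the kidney list Six4 (-0.50), and of the NuRD genes Chd4 (-0.23). Lin28a, Tfap2b and Msx2 averaged 0.35, 0.282 and 0.428 CPM at E14.5. Like Lmx1a, they passed the filter through the earlier stages and could only come out lower at E14.5.

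**Figure D5:**
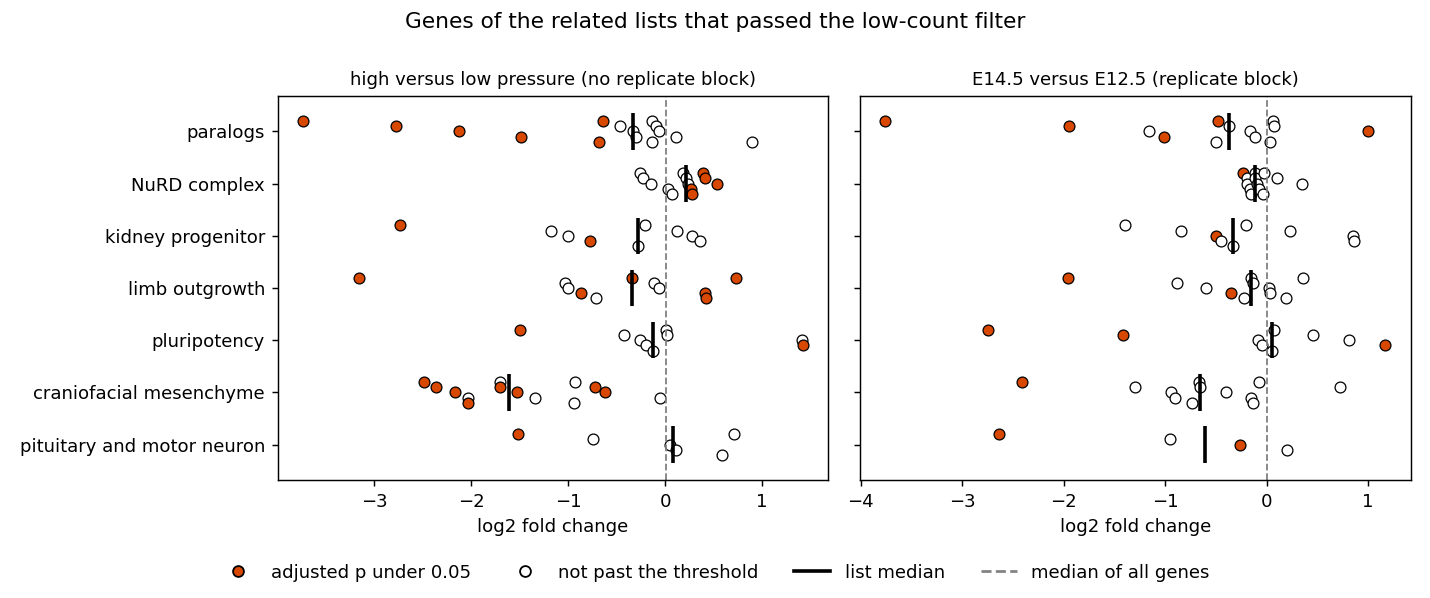
Log2 fold changes of the tested genes of the 7 related lists for high against low pressure (left, no block) and E14.5 against E12.5 (right, replicate block). Filled points are past an adjusted p of 0.05, thick bars are list medians and the dashed line is the median of all genes. The craniofacial list has its median at -1.61 on the left, and the paralog list holds both the lowest value, -3.76 on the right for Lmx1a, and Lhx6 at 1.0.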

How the data were processed

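RNA of 15 pools of CD1 mouse embryonic lungs was sequenced after library preparation with a WaferGen PrepX kit, per the labels' protocols. Per the submitters' processing notes, cutadapt 1.6, Bowtie 1.1.1, TopHat, HTSeq and DESeq2 were used on build mm10, with the annotation and strand setting not given in the sources used here. Raw counts of 23420 genes, deposited by the authors in 2 tables (6 cultured, 9 fresh libraries), were the input of every fit, and the log2 and normalized tables were not used here. Each table was fitted alone in edgeR 4.0.16 (R 4.3.3): TMM scaling, filterByExpr by group, robust quasi-likelihood F-test, Benjamini-Hochberg adjustment over all genes tested, threshold 0.05. CPM are counts per 1000000 of the TMM-scaled library, and an SE is the size of the log2 fold change over the square root of F. The fits were also run on simulated counts with the same spread for all genes and no difference between replicate numbers. The changed genes there were well counted, so that run does not cover genes with few counts.

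The members, gene lists and tests were chosen with earlier results of these data known. The named genes are the members, the relatives Sall2, Sp5, Sp9, Alx4 and Lhx4, up to 4 called genes per list with the smallest p for pressure, and 3 genes most like each member that passed the filter in both tables. Tbx5, Bmp4, Dlx2, Tfap2b and Pax7 for pressure, and genes called in the replicate block fit from E12.5 to E14.5, were named after their values were seen. Some genes that this rule names are not reported here. For likeness a prior count of 2 was added before the log2 of CPM, among genes of at least 1 CPM on average. Replicate numbers are shared by groups. In the fresh lungs all 9 same-numbered pairs deviated together (r of deviations from group means 0.397 to 0.838). The 18 pairs of different numbers had r of -0.736 to 0.625, which overlaps. A pairing by number and a difference of replicate 1 from the others were not told apart, so the block is given beside the plain fit. In the cultured lungs the same-numbered pairs did not deviate together (-0.012 to 0.046). No 2 libraries of a group agreed within sampling noise. Alternatives were other scaling, DESeq2 1.42.0, no filter, the block, a batch term, a joint fit and leaving out libraries. Counting intervals and limits cover counting error only.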

Additional observations from a re-analysis of the deposited data

How the results depend on the processing

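The counts of genes called depended on the setting more than the fold changes of the members did. For high against low pressure 3905 genes were called, 1121 with all 15 libraries in one fit, and 1894 to 6257 when one library was left out, with 6257 without low pressure replicate 3 and 1894 without high pressure replicate 2. From E12.5 to E13.5 edgeR called 0 genes, and 1 (Ifi204, lower, named after its value was seen) with the replicate block and with a batch term for number 1. From E13.5 to E14.5 it called 0, against 856 with the replicate block, 808 with the batch term, 270 with the DESeq2 Wald test and 62 without the number 1 libraries, a setting chosen after seeing the data. From E12.5 to E14.5 it called 0, against 1561 with the replicate block, 1592 with the batch term, 457 with the DESeq2 Wald test, 9 with no filter and 1119 without the number 1 libraries. Leaving out one library there gave 0 to 3 genes, the 3 being Ankrd1, Nkx2-5 and Trim55 without E14.5 replicate 2. The cause of these changes was not tested.

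Of 235 member fold changes under the alternatives, 226 moved by less than 1 SD between replicates, 7 moved further and 2 turned direction: Sall1 (0.52) and Sp8 (0.38) from E12.5 to E13.5, both without E12.5 replicate 3. Leaving out one library gave -0.41 to 0.52 for Sall1 and -0.78 to 0.38 for Sp8 in that step. The ranges for pressure were -3.06 to -2.38 for Sall1, -3.13 to -1.69 for Sp8, -2.15 to -1.78 for Alx1, -2.93 to -1.87 for Lhx3 and -1.07 to -0.30 for Sall4. In the cultured lungs same-numbered libraries did not deviate together, and the labels do not say whether the numbers pair the samples. The replicate block gave 3137 called genes there, with Sall1 and Alx1 among them and Sp8 and Lhx3 not. Without low pressure replicate 3 the Sp8 and Lhx3 fold changes were -1.69 and -1.87. Members with 5 to 35 counts per library are limited by depth, and Sall3 was below what these libraries can compare.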
